A study of Mus musculus with 24 samples.

Results

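PyMT carcinoma was compared with PyMT premalignant lesions in the mammary gland of female mice. PyMT mice carry a transgene for polyoma virus middle T antigen, which the MMTV promoter drives mainly in mammary epithelium, on the FVB background. The PyMT females were F1 animals heterozygous for the transgene, and FVB females without it served as controls. The series holds 24 samples, 3 mice of each genotype at each of weeks 6, 8, 10 and 12. The comparison uses 12 of them, all PyMT. The 6 premalignant samples are those of week 6, staged as hyperplasia, and week 8, staged as adenoma with mammary intraepithelial neoplasia. The 6 carcinoma samples are those of week 10, early carcinoma, and week 12, late carcinoma. Each sample was one mouse, and stage was set by week, so stage and age cannot be told apart within PyMT. The 12 FVB glands of the same weeks, 6 later and 6 earlier, give the background of age without the transgene. RNA came from whole tissue pieces after removal of ribosomal RNA, so that fewer cells of a type and less RNA per cell cannot be told apart.

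Middle T antigen has no enzyme activity of its own. It sits at the cell membrane and acts as a scaffold for Src family kinases, phosphoinositide 3-kinase and the adaptor Shc, and so switches on the signals that ERBB receptors use. In this model the lesions pass through hyperplasia and intraepithelial neoplasia before cells cross the basement membrane, and the fat pad around the ducts is replaced as the lesions grow. The step from a lesion held inside the basement membrane to an invasive one is the question behind the pools.

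Total counts ran from 7701687 to 13516601 in the premalignant samples, with a median of 8603032, and from 7026040 to 9058740 in the carcinoma samples, with a median of 7876808. In some libraries the number of genes plotted against their count had a peak at a count of 5 or more, as if reads came in packets. Such a packet size, of 12 to 25 reads, was found in 4 of 6 premalignant libraries (all 3 of week 6 and replicate 2 of week 8) and in 2 of 6 carcinoma libraries (replicate 2 of week 10 and replicate 1 of week 12). Other tissue also differed between libraries. The summed normalized count of 14 skeletal muscle markers was 38608, 23340 and 4889 in the libraries of week 6 and 34807 in replicate 3 of week 10, against 75.5 to 1352 in the other 8. Replicate 2 of week 8 held the highest interferon and the lowest fat cell marker levels of its pool. A normalized count is a count divided by DESeq2's size factor of its library. The summed level of luminal epithelial markers was higher in every PyMT sample than in every FVB gland. The summed normalized count of 10 luminal epithelial markers was 29270 to 51783 in premalignant and 32561 to 41453 in carcinoma samples, against 5180 to 21885 in the FVB glands.

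On the first and second components of a principal component analysis of the 500 most variable genes, the PyMT samples did not separate by stage. The first component took 44.23% of the variance, with a mean score of -2.60 in premalignant and 2.60 in carcinoma samples. The difference of 5.19 gave p = 0.266 in a two-sided exact permutation test, whose smallest possible p is 0.00216, and 0.355 after Benjamini-Hochberg adjustment over 4 components. Genes of skeletal muscle (Ttn, Myh4, Acta1, Neb) and of milk (Csn2, Csn1s2a) lay at its negative end. Replicates 1 and 2 of week 6 had scores of -12.72 and -12.68, replicate 3 of week 10 had -7.37, and replicate 2 of week 8 lay at the other end with 11.35. The difference on the second component, with 16.77% of the variance, was 0.17 (exact permutation test, adjusted p = 0.946). Its negative end held fat cell genes such as Cfd and Fabp4. The third component, with 11.86% of the variance, differed by -4.90 (exact permutation test, p = 0.026, adjusted p = 0.104). The components were computed again with each mouse left out, so the third need not be the same axis. The exact test's adjusted p was then 0.00866 without replicate 2 of week 6 or without replicate 3 of week 8. Without replicate 1 of week 6 it was 0.0346. Without replicate 2 of week 8 the difference was 2.86 (exact permutation test, adjusted p = 0.323). Without replicate 3 of week 10 it was 1.78 (exact permutation test, adjusted p = 0.446). The fourth component differed by 3.56 (exact permutation test, adjusted p = 0.182).

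**Figure D1:**
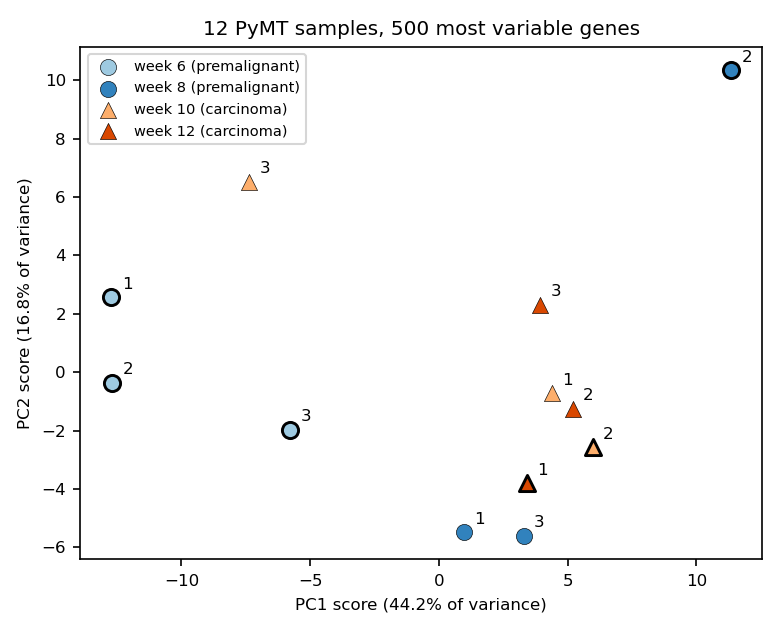
Scores of the 12 PyMT samples on the first component (horizontal axis) and the second component (vertical axis) of variance-stabilized counts, with color for the week, the replicate number beside each point and a thick outline for libraries with a packet size. Samples of week 6 lie to the left together with replicate 3 of week 10 at -7.37, and the carcinoma samples otherwise overlap those of week 8.

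Of 37991 genes in the table, 14842 had a CPM, the read count relative to the library total, of 1 or more in 6 or more PyMT samples and were tested. After Benjamini-Hochberg adjustment of edgeR's quasi-likelihood test, 0 genes (0%) had an adjusted p under 0.05, and the smallest adjusted p was 0.161. At an unadjusted p under 0.05, 575 genes (3.87%) were higher and 492 (3.31%) lower in carcinoma. The 6 carcinoma samples lay above all 6 premalignant samples for 47 genes (0.317%) and below all of them for 29 (0.195%). DESeq2's Wald test called 37 genes, 29 higher (0.195%) and 8 lower (0.0539%), of which 12 changed more than 2-fold, and limma voom with quality weights called 0. The median log2 fold change over all tested genes was 0.003. The counts of members past the unadjusted threshold in each list below are to be read against the 3.87% higher and 3.31% lower of all tested genes. That background holds for the pooled comparison of all 12 samples and moves when samples are left out. Without week 6, 369 genes were higher and 250 lower, and without replicate 2 of week 8, 697 were higher and 752 lower. The genes below are described by their levels, and none of them passed the adjusted threshold of edgeR's test in the pooled comparison.

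The largest differences among the genes nearest to the threshold belonged to a group of genes made of one repeated sequence. Gm10800 lies on chromosome 2 of the mm9 build (2:98506704-98507458, minus strand), and comparison of its own letters showed 67.2% equal bases at a shift of 234 bases. Mouse major satellite DNA, the tandem repeat beside the centromeres, is known to be built from units of that length. A search of 37080 gene models for those that share at least 25% of their 12-base words with Gm10800 found 15 such genes, 13 on chromosome 9 between 3000282 and 3038316 and 2 on chromosome 2 between 98502394 and 98507458. The lowest share among them was 29.8%, and the highest outside them was 3.33%. The stretches below, from the reference genome, show how alike 2 of these genes are, the first from chr2:98506964-98507137 on the minus strand and the second from chr9:3023617-3023790 on the plus strand. Capitals mark the bases equal in both, 162 of 174 (93.1%).
Gm10800: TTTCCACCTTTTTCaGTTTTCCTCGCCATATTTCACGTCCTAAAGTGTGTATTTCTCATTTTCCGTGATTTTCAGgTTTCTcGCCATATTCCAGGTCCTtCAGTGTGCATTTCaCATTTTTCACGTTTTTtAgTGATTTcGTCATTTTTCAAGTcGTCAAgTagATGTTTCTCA
Gm10718: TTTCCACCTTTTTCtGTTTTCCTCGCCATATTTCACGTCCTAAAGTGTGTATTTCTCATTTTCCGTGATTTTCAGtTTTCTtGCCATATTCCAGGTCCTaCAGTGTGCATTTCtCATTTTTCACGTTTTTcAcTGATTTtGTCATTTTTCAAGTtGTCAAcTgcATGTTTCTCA
Reads from copies this close cannot be assigned to one of them with certainty, so the genes are given as a group and each gene's own count is uncertain. Gm16869 is annotated as a long noncoding RNA on the other strand of the same region, and its reads cannot be told apart from those of its neighbours without strand. The group was put together after the values had been seen.

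Summed over the 15 genes, the level in premalignant samples had a lowest value of 40.2 CPM, a median of 166 and a highest value of 243. In carcinoma samples the lowest was 252, the median 928 and the highest 1170. Every carcinoma sample lay above every premalignant sample. The 12 genes that passed the filter on low counts had a median log2 fold change of 2.60, and all 12 were higher at an unadjusted p under 0.05. That count is no test of the group, since near copies share reads. Some members also reached the filter mainly through carcinoma samples, such as Gm10720, with 0 to 11.4 normalized counts in premalignant samples. Gm10800 ranged from 64.7 to 562 normalized counts with a median of 352 in premalignant samples and from 700 to 3055 with a median of 2600 in carcinoma samples, a log2 fold change of 2.80 ± 0.49 (SE, edgeR adjusted p = 0.161, DESeq2 adjusted p = 0.00252). Gm11168 went from a median of 45.5 to 313 (log2 fold change 2.55 ± 0.46, edgeR adjusted p = 0.161, DESeq2 adjusted p = 3.43e-05). The week means of Gm10800 were 145, 487, 2060 and 2260 at weeks 6, 8, 10 and 12. Without week 6 the median log2 fold change of the 12 genes was 2.07. The same genes also differed with age in FVB glands, where the summed level was 130 to 541 CPM in the earlier weeks and 209 to 3670 in the later ones and the median log2 fold change was 2.42, with 11 of 12 at an unadjusted p under 0.05. Medians of the summed level were 252 and 1240 in FVB, so it was higher at the later weeks in both genotypes.

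**Figure D2:**
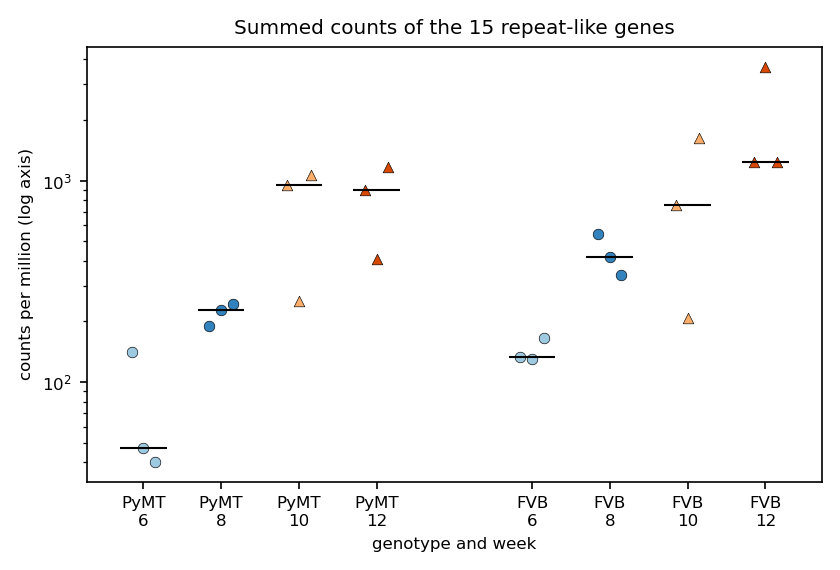
Summed level of the 15 repeat-like genes in CPM (logarithmic vertical axis) in each library, by genotype and week, with a bar at the median of each week. The carcinoma samples, from 252 to 1170, lie above all premalignant samples, from 40.2 to 243, and the FVB glands of the later weeks reach 3670.

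Among the other genes nearest to the threshold, those higher in carcinoma included receptors and signalling proteins. Osmr, the receptor chain for oncostatin M (15:6763577-6824313), ranged from 1086 to 1534 normalized counts in premalignant samples, with a median of 1292. In carcinoma it ranged from 1703 to 2441, with a median of 2059. The pools did not overlap. The log2 fold change was 0.70 ± 0.12 (edgeR adjusted p = 0.161), and DESeq2's Wald test called it with an adjusted p of 0.000142. Its week means were 1240, 1350, 1820 and 2310. Prkca, protein kinase C alpha, had a lowest, median and highest value of 631, 882 and 1039 in premalignant and of 970, 1628 and 2051 in carcinoma samples. Of the 6 carcinoma samples, 5 lay above the premalignant range (log2 fold change 0.89 ± 0.16, edgeR adjusted p = 0.18, DESeq2 adjusted p = 0.000779). Hras1, the small GTPase downstream of receptor tyrosine kinases, had 668, 841 and 875 in premalignant and 803, 1497 and 1970 in carcinoma samples. It was also above the premalignant range in 5 of 6 carcinoma samples (log2 fold change 0.90 ± 0.18, edgeR adjusted p = 0.259), with week means of 799, 802, 1670 and 1270. Without replicate 1 of week 12, Hras1 was the 1 gene that edgeR called. Kit, the stem cell factor receptor of luminal progenitors, went from a median of 2281 to 3318 (log2 fold change 0.63 ± 0.14), and DESeq2 called it with an adjusted p of 0.00555.

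Alpl, a tissue alkaline phosphatase, had a log2 fold change of 1.09, with medians of 251 and 486. Papln, an extracellular matrix glycoprotein, had 0.93, with medians of 1517 and 3218. Tcfap2c, the transcription factor AP-2 gamma of luminal cells, had 0.59, and its carcinoma values of 912 to 1359 overlapped the premalignant range of 667 to 958 in 1 sample. The membrane protein gene Plxdc2 had 0.62. Dennd2d, an exchange factor for Rab GTPases, had 0.61 and Pisd-ps1, a pseudogene, had 0.67, both without overlap between the pools. All of these were called higher by DESeq2. A few further DESeq2 calls, named after their values were seen, were Dll1, a Notch ligand with a log2 fold change of 1.74 (medians 125 and 416), Col9a2, a collagen chain with 1.04 (452 and 1085), Boc, a hedgehog co-receptor with 0.86 (968 and 1939), and Fxyd3, a regulator of the sodium pump with 0.53 (919 and 1333, without overlap).

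Among the genes nearest to the threshold that were lower in carcinoma, Rrm2 had the smallest p. Rrm2, the regulated subunit of ribonucleotide reductase (12:25393106-25399011), ranged from 756 to 1445 normalized counts in premalignant samples, with a median of 985, and from 486 to 779 in carcinoma samples, with a median of 570. Only 1 carcinoma sample lay inside the premalignant range. Its log2 fold change was -0.81 ± 0.16 (edgeR adjusted p = 0.232, DESeq2 adjusted p = 0.00252), and the week means of 1220, 875, 630 and 542 ran downward through all 4 weeks. Slc25a5, which exchanges ADP and ATP across the inner mitochondrial membrane, had 2259, 2781 and 3166 in premalignant and 1523, 1942 and 2118 in carcinoma samples. Cyc1, cytochrome c1 of respiratory complex III, had 662, 755 and 967 against 294, 419 and 599. Both were without overlap between the pools, with log2 fold changes of -0.50 ± 0.10 and -0.78 ± 0.18, and DESeq2 called both (adjusted p of 0.00269 and 0.0213). Pik3r3, a regulatory subunit of phosphoinositide 3-kinase, had 543, 694 and 1422 against 332, 377 and 539 and did not overlap either (log2 fold change -0.98 ± 0.22, DESeq2 adjusted p = 0.00885). Letm1, another protein of the inner mitochondrial membrane, had a log2 fold change of -0.78 with a DESeq2 adjusted p of 0.0523.

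Other lower genes were Cyp51, an enzyme of cholesterol synthesis (log2 fold change -0.68), Cyb5b, a cytochrome b5 of the outer mitochondrial membrane (-0.74), and Fam135a (-0.68), each called by DESeq2. Ptrf, a coat protein of caveolae, was without overlap at -0.69, with a premalignant range of 396 to 760 and a carcinoma range of 293 to 388, and had a DESeq2 adjusted p of 0.0554. Mcm6, a subunit of the replicative helicase, had -0.53, Dbf4, the activator of the kinase Cdc7, had -0.84, and C1qtnf1, a secreted C1q-like protein, had -0.74. DESeq2 called none of these 3. Sod3, the secreted superoxide dismutase, ranged from 77.2 to 154 in premalignant and from 14.2 to 71.2 in carcinoma samples, with no overlap (log2 fold change -1.53 ± 0.36, DESeq2 adjusted p = 0.0177). Its week means of 100, 138, 30.1 and 51.0 placed the difference between weeks 8 and 10.

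**Figure D3:**
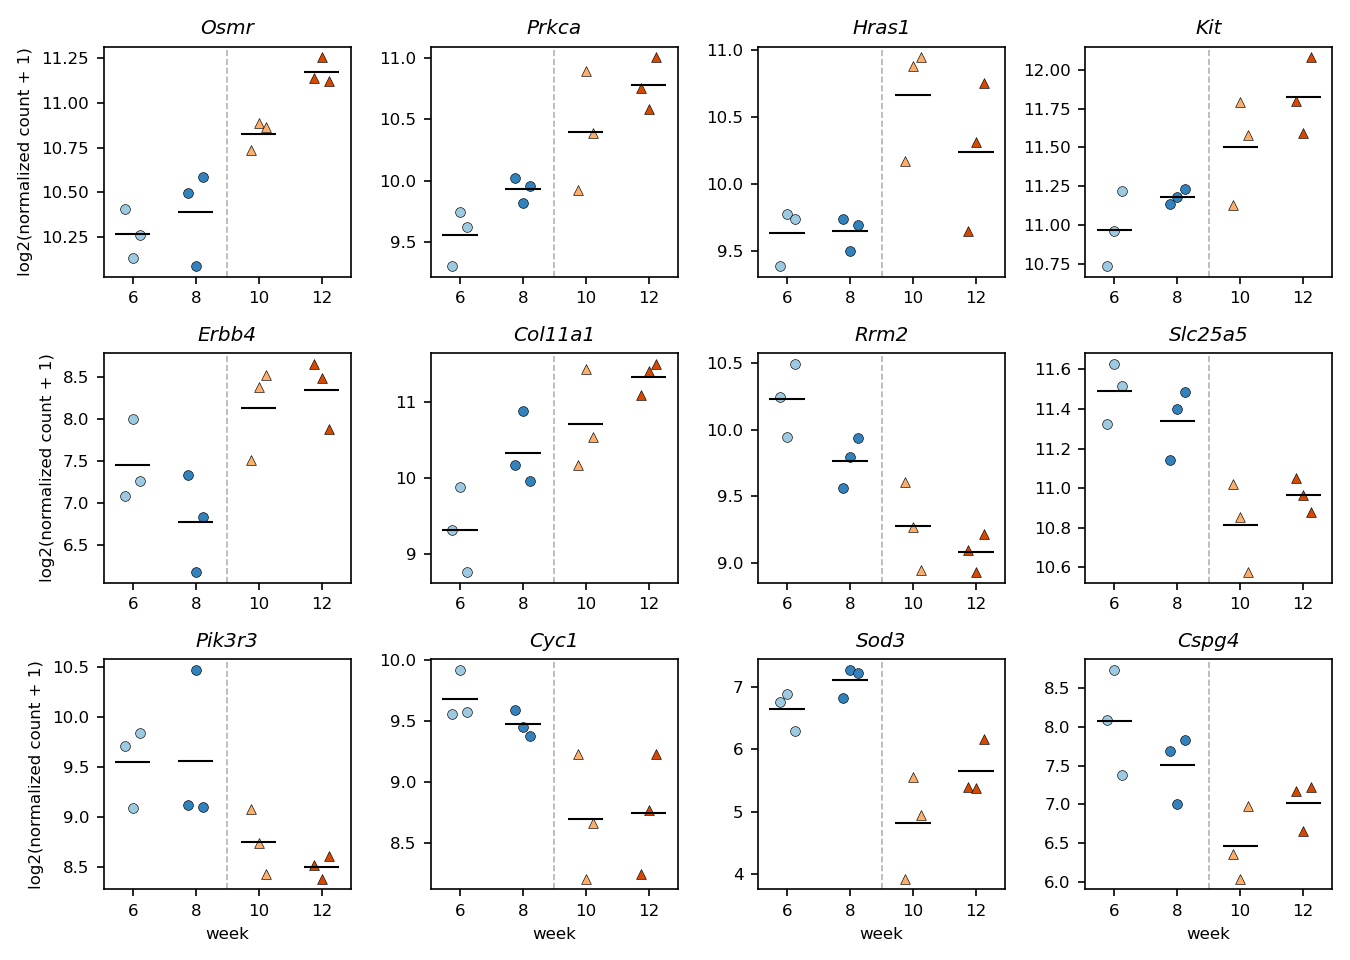
Normalized counts of 12 genes on a log2 scale after adding 1 (vertical axes), by week (horizontal axes), with 1 point per mouse, a bar at the week mean and a dashed line between the premalignant and the carcinoma weeks. Osmr, Slc25a5, Pik3r3, Cyc1 and Sod3 do not overlap across the line, while Kit, Erbb4 and Rrm2 do.

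Genes of cell division were mostly lower in carcinoma, by a small amount. For a list of 43 genes of DNA replication and S phase the median log2 fold change was -0.34, 39 of 43 were lower, and 10 were lower and 0 higher at an unadjusted p under 0.05, against 3.31% of all tested genes lower at that threshold. For 44 genes of mitosis the median was also -0.34, 43 were lower, and 13 were lower and 0 higher at that threshold. The mean log2 level of the replication list was 8.28, 8.16, 7.95 and 7.84 at weeks 6, 8, 10 and 12, and that of the mitosis list 8.88, 8.68, 8.53 and 8.36, each with a spread between mice of 0.16 to 0.29 (SD). No step between neighbouring weeks was larger than the SD of the wider of the weeks. Mki67, the proliferation antigen, ranged from 3969 to 6016 in premalignant and from 3144 to 4741 in carcinoma samples (log2 fold change -0.32 ± 0.12). Ccna2, cyclin A2, had -0.38 ± 0.11, Tacc3, a spindle protein, had -0.48 ± 0.16, and Fen1, the flap endonuclease, had -0.45 ± 0.14. None of the 4 was called by edgeR or DESeq2. Without week 6 the medians of the lists were -0.28 and -0.20, with 4 and 3 members lower at the unadjusted threshold. In that fit 250 of all tested genes were lower at that threshold, against 492 with all 12 samples. With a mouse left out, the count of lower mitosis genes ran from 4 (without replicate 2 of week 12) to 22 (without replicate 2 of week 8), and was 6 or 7 without replicate 3 of weeks 6, 8 or 10. Over all tested genes, 388 were lower without replicate 2 of week 12 and 752 without replicate 2 of week 8. The count of lower replication genes was 6 without replicate 3 of week 8 or week 10 or replicate 1 of week 12. The medians stayed below 0 in each of these. In FVB glands the median of the mitosis list was -1.29 and that of the replication list -0.35. There 11 of 44 and 1 of 43 genes were lower at an unadjusted p under 0.05, against 2.82% of all genes tested in FVB. The log2 fold change of the mitosis genes in PyMT minus that in FVB had a median of 0.98, since the values in PyMT lay nearer to 0. In edgeR's test of that difference 5 of the 44 genes had an unadjusted p under 0.05, against 5.38% of all tested genes.

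The study names 6 genes at the transition between stages, a list it chose on these samples. It chose them by the change from week 8 to week 10 in the log2 ratio of PyMT to FVB. The pools here compare PyMT samples alone, which is another measure. The mean log2 level of the 6 genes was 8.08 at week 8 and 8.29 at week 10 in PyMT. In FVB it was 5.58 and 3.59, with an SD between mice of 2.78 and 3.0. Between the PyMT pools, Erbb4 of these 6 genes was higher and Ccnb2 lower at an unadjusted p under 0.05. Ccnb2, cyclin B2, ranged from 229 to 433 in premalignant and from 133 to 344 in carcinoma samples (log2 fold change -0.50 ± 0.22). Cdk1, the mitotic kinase, had 472, 578 and 758 against 359, 442 and 866, so its carcinoma range held the premalignant one (-0.19 ± 0.20). The log2 fold changes were -0.19 ± 0.27 for the kinase Plk1, -0.26 ± 0.24 for the kinase Aurkb and 0.06 ± 0.23 for the spindle protein Spag5, all with overlapping pools. Those of Plk1, Cdk1 and Spag5 changed sign under some alternatives.

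Erbb4 belongs to the ERBB family of receptors, whose signals middle T antigen mimics. It ranged from 71.3 to 255 normalized counts with a median of 144 in premalignant samples and from 181 to 403 with a median of 345 in carcinoma samples. Of 6 carcinoma samples, 4 lay above the premalignant range (log2 fold change 1.10 ± 0.27, edgeR adjusted p = 0.313, DESeq2 adjusted p = 0.047). Its week means of 181, 115, 293 and 331 had their widest gap between weeks 8 and 10. Egfr, another receptor of the family, went from a median of 1165 to 1609 (0.46 ± 0.12, DESeq2 adjusted p = 0.0752). Of the 13 tested receptors and ligands of the family, 2 were higher and 0 lower at an unadjusted p under 0.05, and the median log2 fold change was near 0. Among 22 luminal keratin and adhesion genes, Kit was higher and Cldn4, a tight junction protein, lower (-0.82 ± 0.28). Of the 14 tested factors of epithelial to mesenchymal transition, 0 passed the unadjusted threshold in either direction, with a median of 0.02. Among 25 genes of the Wnt pathway, the receptors Fzd1 (0.73 ± 0.20) and Lrp6 (0.24 ± 0.09) were higher and none was lower. With 3.87% of all tested genes higher at that threshold, 2 of 25 is near the background.

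Lipid synthesis genes were lower in carcinoma, and for fatty acids the difference lay at week 6. Of 18 genes of fatty acid synthesis, 9 were lower and 1 higher at an unadjusted p under 0.05, against 3.31% lower and 3.87% higher of all tested genes, with a median log2 fold change of -0.73. The mean log2 level of the list was 11.32 at week 6 and 10.45, 10.33 and 10.62 at weeks 8, 10 and 12. Without week 6 the median was -0.11, with 1 gene lower and 1 higher, and without replicate 2 of that week alone it was -0.38 with 2 lower. Acly, which makes cytosolic acetyl-CoA, went from a median of 8565 to 5079 (-0.72 ± 0.21), Dgat2, the last enzyme of triglyceride synthesis, from 766 to 382 (-1.61 ± 0.44), and Slc25a1, the citrate carrier, from 600 to 324 (-1.04 ± 0.36). The member that was higher was Srebf1, the transcription factor that drives these genes, with medians of 8796 and 14320 (0.74 ± 0.18). Of 22 cholesterol synthesis genes, 7 were lower, against 3.31% of all tested genes, and 0 higher, with a median of -0.40 and week means of 8.30, 8.20, 7.87 and 7.85. This list kept a median of -0.33 without week 6, though with 2 genes lower, and 4 were lower without replicate 3 of week 6 or of week 8. Insig1, which holds back the sterol sensor, had 396, 553 and 688 against 161, 335 and 430 (-0.78 ± 0.24). In FVB glands the medians of the fatty acid and the cholesterol list were 0.19 and 0.20.

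Fat cell markers were lower too. All 14 adipocyte markers were lower in carcinoma, 6 of them at an unadjusted p under 0.05, with a median of -0.86. Their summed normalized count ran from 3243 to 31801 with a median of 20121 in premalignant samples and from 5998 to 16887 with a median of 10332 in carcinoma samples, against 120035 to 307501 in FVB glands, and no marker was at 0 in all PyMT libraries. The pools overlapped, with the lowest value in replicate 2 of week 8, and replicate 3 of week 8 (13835) lay below replicate 2 of week 10 (14410) and replicate 1 of week 12 (16887). Without replicate 2 of week 8 the median was -1.07 with 12 lower, and without week 6 it was -0.25 with 1 lower. Without replicate 3 of week 6 or replicate 1 of week 10 the threshold was passed by 2 markers, and without replicate 3 of week 12 by 3. Plin1, the coat protein of fat droplets, went from a median of 703 to 314 (-1.23 ± 0.41) and Lpl, lipoprotein lipase, from 2829 to 1197 (-0.99 ± 0.35). In FVB glands the median of the list was 0.44, and the change in PyMT lay below that in FVB for all 14. Of these, 10 had an unadjusted p under 0.05 in edgeR's test of that difference, against 5.38% of all tested genes. Of 6 tested brown fat markers, 0 passed that threshold in either direction. The part of fat cells in the lipid synthesis values was not tested.

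Milk genes were high at week 6. Of 25 genes of milk proteins and secretion, 6 were lower and 0 higher in carcinoma, with a median of -0.41, and the week means were 11.05, 9.75, 10.12 and 9.90. Without week 6 the median was 0.16, with 1 gene lower. With a mouse left out the count ran from 2 without replicate 1 of week 6, over 3 without its replicate 3 or replicate 2 of week 10 or 12, to 10 without replicate 2 of week 8. Csn1s2a, a casein, had 203, 2581 and 16620 in premalignant and 276, 1174 and 3238 in carcinoma samples (-2.17 ± 0.76), and Wap, whey acidic protein, had 273, 1157 and 5235 against 206, 615 and 1441 (-1.52 ± 0.58). Both were widely spread inside the premalignant pool and had a fold change above 0 without week 6. Ltf, lactotransferrin, had -0.90 ± 0.24 and kept -0.51 without week 6. Of 15 tested hormone receptor genes and targets, Prlr, the prolactin receptor, was lower (-0.30 ± 0.13) and none was higher.

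**Figure D4:**
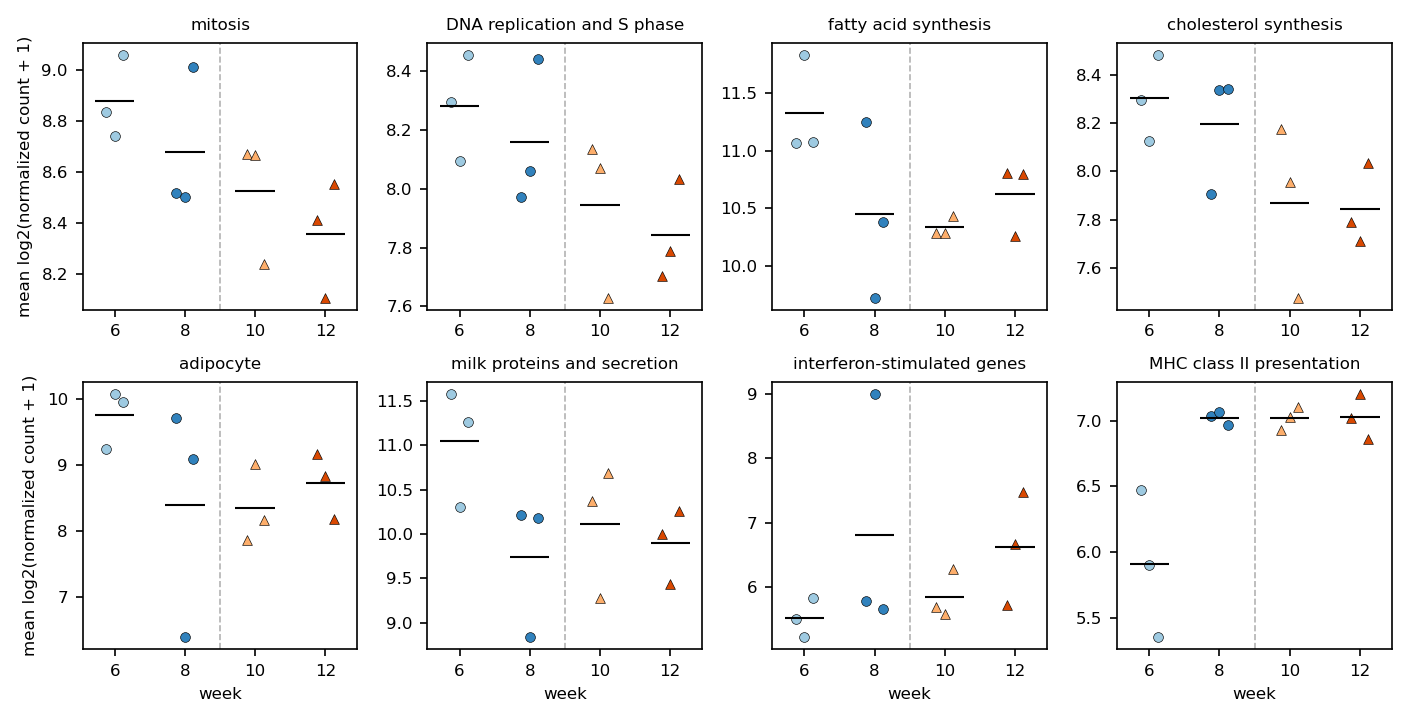
Mean log2 normalized level of 8 gene lists in each of the 12 PyMT samples (vertical axes) by week (horizontal axes), with a bar at the week mean. The fatty acid, milk and adipocyte lists are highest at week 6, and the interferon list has 1 library of week 8 at 9.00 far above the others.

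Interferon-stimulated genes were set by 1 library. Of 30 tested genes, 3 were lower and 0 higher in carcinoma at an unadjusted p under 0.05, with a median of -0.52. Without replicate 2 of week 8 the median was 0.39, with 6 higher and 0 lower. Without replicate 3 of week 12 the median was -0.97 with 5 lower, and 1 was lower without replicate 2 of week 10 or replicate 1 of week 12. The mean log2 level of the list was 9.00 in replicate 2 of week 8, against a median of 5.72 in the premalignant and 6.00 in the carcinoma samples. Oas2, a sensor of double-stranded RNA, had 27.6, 51.9 and 1271 in premalignant and 0, 24.4 and 112 in carcinoma samples (-2.80 ± 0.99, and -0.48 without that library). Rsad2, the antiviral protein viperin, had a log2 fold change of -2.08 with and 0.25 without it, and Gbp3, a guanylate-binding protein, had -1.46 and -0.11. MHC class I genes turned on the same library, with a median of -0.22 over 12 genes and of 0.12 without the library, where B2m, the light chain of MHC class I, had 6067 against a median of 1276 in its pool. MHC class II genes were low at week 6. Of 10 genes, Cd74, the invariant chain, with medians of 895 and 1068 (0.43 ± 0.15) and H2-Ab1 (0.47 ± 0.22) were higher and none was lower. The week means of that list were 5.91, 7.02, 7.02 and 7.03, and without week 6 its median went from 0.33 to 0.02.

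The matrix genes of the lists showed no common direction. The 30 collagen and fibrous matrix genes had a median log2 fold change of 0.01, with 1 higher and 1 lower at an unadjusted p under 0.05. Col9a2 and Papln, given above as called higher by DESeq2, are not among the 30. Col11a1, a fibrillar collagen chain, ranged from 433 to 1877 with a median of 965 in premalignant and from 1155 to 2890 with a median of 2432 in carcinoma samples (1.15 ± 0.29, DESeq2 adjusted p = 0.131). Its week means were 669, 1340, 1800 and 2590. Thbs1, thrombospondin 1, was lower (-0.79 ± 0.27), and replicate 2 of week 8 held 17591 against a pool median of 5715, so that without it the log2 fold change was -0.35. Of 20 basement membrane genes, the type IV collagen chains Col4a1 (-0.47 ± 0.16) and Col4a2 (-0.43 ± 0.15) were lower and the chain Col4a6 (0.47 ± 0.17) higher. Among 21 metalloproteases and inhibitors, the membrane protease Mmp16 was higher (1.29 ± 0.40), and the inhibitor Timp3 (-0.43 ± 0.19) and the protease Adamts9 (-0.81 ± 0.31) were lower. In FVB glands the collagen list had a median of -0.39, with 11 of 30 lower and 1 higher at an unadjusted p under 0.05, against 2.82% lower and 2.38% higher of all genes tested in FVB.

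Of 14 endothelial markers, 13 were lower and 3 of them, Flt1 (-0.57 ± 0.24), Robo4 (-0.76 ± 0.34) and Cdh5 (-0.63 ± 0.30), passed the unadjusted threshold. The median was -0.49, and -0.23 with 0 past the threshold without week 6. With a mouse left out, from 0 (without replicate 1 of week 6, replicate 3 of week 10 or replicate 2 of week 12) to 6 (without replicate 2 of week 8) passed, and 1 passed without replicate 2 or 3 of week 6, replicate 3 of week 8 or replicate 3 of week 12. Cspg4, a proteoglycan of pericytes, ranged from 128 to 424 in premalignant and from 65.0 to 149 in carcinoma samples (-1.07 ± 0.29, DESeq2 adjusted p = 0.0752). Another pericyte marker, the receptor Notch3, was higher (0.29 ± 0.13). Of 12 basal and myoepithelial markers, Acta2, smooth muscle actin (-0.74 ± 0.28), and Oxtr, the oxytocin receptor (-0.69 ± 0.32), were lower and none was higher at that threshold, which 3.31% of all tested genes passed downward. The median of that list was -0.18, and its week means of 7.39, 7.48, 7.09 and 7.39 lay within the spread between mice. Krt14, a basal keratin, ranged from 167 to 976 in premalignant and from 288 to 2878 in carcinoma samples (0.80 ± 0.51). Of 14 fibroblast markers, Pi16 was higher (0.81 ± 0.37) and none was lower, with a median of 0.00. No macrophage marker of 15 passed the threshold, with a median of 0.06. Few lymphoid and granulocyte markers had counts high enough to be tested, though most had some counts in PyMT samples. Tested were 3 of 10 neutrophil, 3 of 14 T and NK cell, 2 of 14 B cell, 4 of 7 dendritic cell and 2 of 6 mast cell markers. Of the tested ones 1, the immunoglobulin chain Ighm, was lower (-0.79 ± 0.35). Hba-a1, a hemoglobin chain, was higher (0.79 ± 0.29), as the 1 of 4 red blood cell markers past the threshold. Of 14 skeletal muscle markers none passed, with a median of -0.74. Without week 6 that median was 6.19 with 12 higher, with 1 carcinoma library far above the others. The muscle myosin Myh4 was at 11010 in replicate 3 of week 10 and at 0 to 461 in the other carcinoma samples. The week means of the muscle list were 9.33, 2.54, 5.07 and 4.50. None of the 6 tested markers of neurons and Schwann cells and none of the 10 luminal epithelial markers passed.

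The stress and signalling lists had medians near 0. Of 31 hypoxia and glycolysis genes, 2 were higher and 2 lower. Aldoc, a glycolytic aldolase, had medians of 1368 and 1828 (0.76 ± 0.21) and was called higher by DESeq2 with an adjusted p of 0.047, and Car9, the hypoxia-induced carbonic anhydrase, had 1.70 ± 0.74 with low counts, of 0 to 28.2 against 18.9 to 117. The kinase genes Pdk1 (-0.34 ± 0.15) and Hk2 (-0.62 ± 0.28) were lower. Of 28 genes of the ATF4 response and amino acid synthesis, 5 were lower and 0 higher, against 3.31% of all tested genes lower. That count was 2 without replicate 3 of week 6 or replicate 2 of week 12, and 3 without replicate 1 of week 6, replicate 3 of week 8 or replicate 2 or 3 of week 10. Among these were Slc7a5, an amino acid carrier (-0.56 ± 0.19), Asns, asparagine synthetase (-0.57 ± 0.20), Shmt2, a mitochondrial enzyme of one-carbon metabolism (-0.33 ± 0.14), and Psat1 of serine synthesis (-0.30 ± 0.14). Of 23 immediate early genes, the transcription factors Jun (0.43 ± 0.15) and Junb (0.49 ± 0.18) were higher and the phosphatase Dusp5 (-0.67 ± 0.23) lower. None of the 19 tested chemokines and receptors passed, with a median of 0.18.

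**Figure D5:**
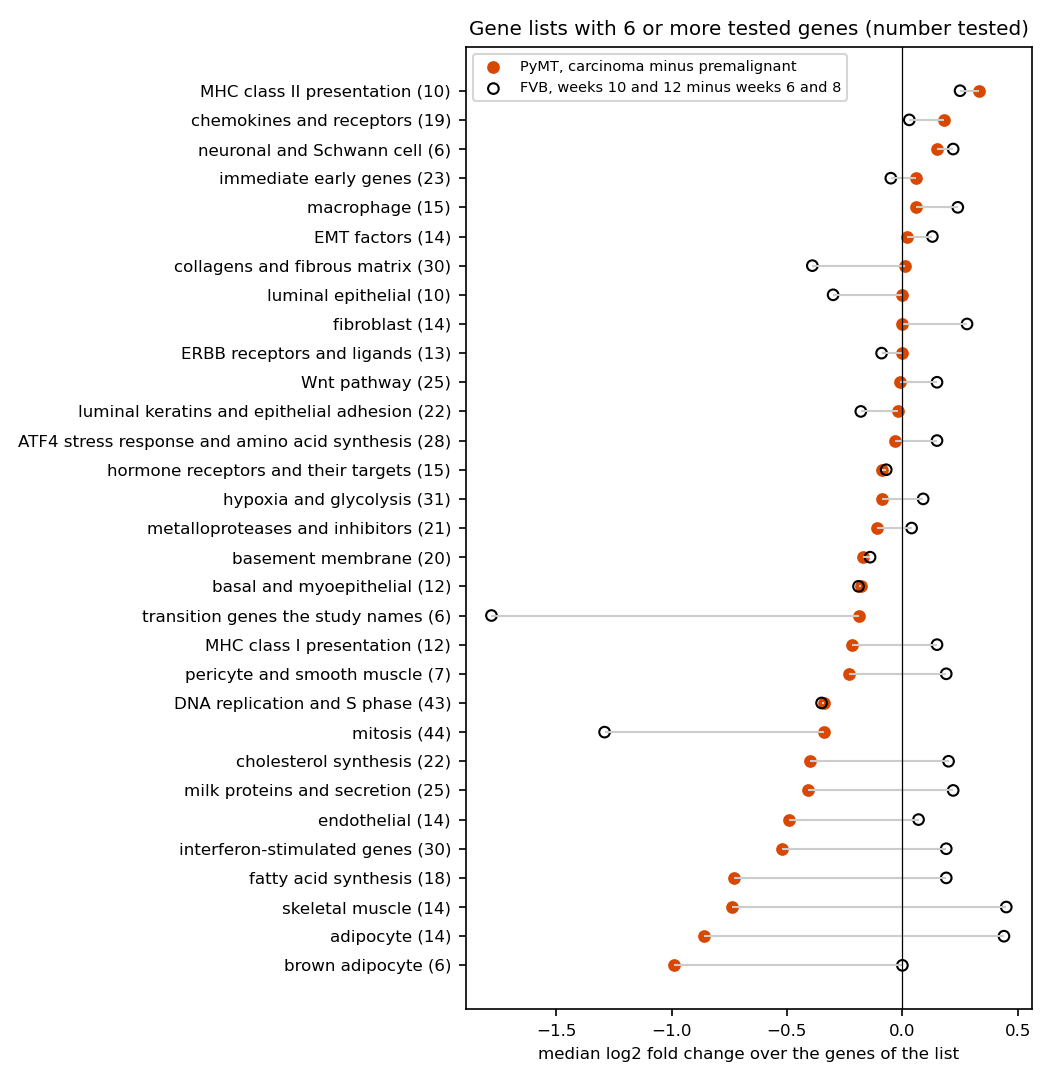
Median log2 fold change of the gene lists (horizontal axis) for carcinoma against premalignant PyMT samples (filled points) and for later against earlier weeks in FVB glands (open points). The repeat-like genes and the lists with the fewest tested genes are left out. Adipocyte markers are at -0.86 in PyMT and 0.44 in FVB, and mitosis genes at -0.34 and -1.29.

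A fit of the 4 weeks as separate groups placed more genes at the first step than at the step between the pools. From week 6 to week 8, 928 genes (6.25%) had an unadjusted p under 0.05 and 1 (0.00674%) an adjusted p under 0.05 by edgeR. From week 8 to week 10, where the stage changes, 303 (2.04%) had an unadjusted p under 0.05 and 0 (0%) passed the adjusted threshold. From week 10 to week 12 these were 202 (1.36%) and 0 (0%). With counts divided by the packet size, the numbers at an unadjusted p under 0.05 by edgeR were 740, 472 and 409. All 3 libraries of week 6 had a packet size, against 1 of 3 at week 8. The mean log2 level of skeletal muscle markers was 9.33 at week 6 and 2.54 at week 8. The part of either in the first step was not tested. The gene that passed at the first step was Lao1, an amino acid oxidase found in milk, which fell by 1.86 on the log2 scale (edgeR adjusted p = 0.0145), with week means of 4310, 1170, 1710 and 844. DESeq2's Wald test called 71, 6 and 0 genes at the 3 steps, and the 6 of the second step included the muscle genes Neb, Ckm, Atp2a1, Acta1 and Ttn beside Sod3. The call of Lao1 rested on few mice, since 0 genes passed without replicate 1 or 3 of week 6, replicate 2 or 3 of week 8 or replicate 2 of week 10, and 25 passed without replicate 3 of week 10.

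In FVB glands, where age changes without lesions, 0 genes (0%) passed the adjusted threshold of edgeR's test between the later and the earlier weeks. There 353 genes (2.38%) were higher and 419 (2.82%) lower at an unadjusted p under 0.05. DESeq2 called 17 and voom 84. The change in PyMT minus the change in FVB was tested over all 24 samples. It gave 0 genes (0%) past the adjusted threshold, with a smallest adjusted p of 0.564, and 799 (5.38%) at an unadjusted p under 0.05, while DESeq2 called 3, Ccnd2, Syne1 and Zeb2, and voom called 67. The 5 genes with the smallest p were Mrpl41, Ccnd2, Plekhb1, 4632427E13Rik and Sod3.

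Ccnd2, cyclin D2, went from a median of 381 to 248 in PyMT and from 2060 to 2615 in FVB, a difference of -1.11 ± 0.25 between the log2 fold changes. Plekhb1, a membrane-associated protein, ranged from 212 to 531 in premalignant and from 593 to 1279 in carcinoma samples without overlap. In FVB it went from a median of 475 to 302, a difference of 1.61 ± 0.37. Mrpl41, a mitochondrial ribosomal protein, went from a median of 220 to 124 in PyMT and from 99.7 to 153 in FVB (-1.61 ± 0.35). The difference for Sod3 was -1.71 ± 0.40, with FVB medians of 528 and 683. Kit differed by 1.02 ± 0.26, with FVB medians of 1697 and 1229, and 4632427E13Rik by 0.82 ± 0.19. Osmr, higher with age in FVB as well (medians 751 and 1174), differed by 0.12 ± 0.21. Syne1, a nuclear envelope protein, had a log2 fold change of -0.78 in PyMT and 0.46 in FVB, and Zeb2, a transcription factor of mesenchymal cells, -0.35 and 0.59.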

How the data were processed

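Total RNA of snap frozen mammary tissue was depleted of ribosomal RNA and made into directional libraries. After adapter trimming, the authors used GSNAP for alignment to mm9 and HTSeq for counting over Ensembl genes. The deposited values are raw counts with no normalization. The strand setting of the counting is not given in the sources used here. Of 37991 genes, 37205 had a gene model in GENCODE M1 (mm9), used here for symbols, coordinates and sequence.

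The groups came from genotype and week, and 0 columns belonged to other samples. Genes that reached a CPM of 1 in 6 or more PyMT samples were tested by edgeR's quasi-likelihood test with TMM scaling and Benjamini-Hochberg adjustment (R 4.3.3, edgeR 4.0.16). DESeq2 1.42.0 and limma 3.58.1 served as alternatives, and Python 3.11.15 with SciPy 1.17.1 for permutation tests. Standard errors were derived from each log2 fold change and its F statistic. The fits were tested on simulated data. Replicates were checked for duplicate columns by the chi-square per gene, which was 20.4 to 61.8 over 12 pairs. Reads without molecular identifiers are not independent molecules, so counts carry more error than counting alone gives.

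The comparison, the gene lists and the tests were chosen with earlier results of these data known. The named genes were to be those called by edgeR with no overlap and a mean normalized count of 100 or more, 12 in each direction, filled up by the smallest unadjusted p where fewer passed, which here were all of them. Up to 4 members of each list, with a mean of at least 20, were added by smallest p, as were the 5 genes with the smallest p in the test of the change in PyMT against FVB, the genes the study names at the transition, and the repeat-like genes. Dll1, Boc, Fxyd3, Col9a2, Syne1 and Lao1 were named after their values were seen. Since edgeR called no gene in the pooled comparison, the share of called genes with promoter motifs was not computed.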

Additional observations from a re-analysis of the deposited data

Results flagged for a closer look

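A sample was singled out where its gap to the nearest other sample of its pool of 6, divided by the range of the pool, exceeded the 95% limit of Dixon's test for 6 samples. Chance gives about 1 in 20 such groups. Of 304 groups, 29 had such a sample, and 12 of these 29 lay in PyMT week 8 replicate 2, 6 in week 12 replicate 3 and 4 in week 6 replicate 2.

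PyMT week 8 replicate 2 stood above its pool in the mean log2 level of interferon-stimulated genes (9.00) and MHC class I genes (10.32) and below it for adipocyte (6.39) and pericyte (6.31) markers. Its normalized counts stood apart for Oas2 (1271), Rsad2 (961), Gbp3 (843), B2m (6067), Thbs1 (17591), Dusp5 (1086), Papln (2531) and Gm11167 (30). PyMT week 12 replicate 3 stood above the other carcinoma samples for the same antiviral genes at lower levels, Oas2 (112), Rsad2 (98.9) and Gbp3 (140), and for Asns (584), Plekhb1 (1279) and the ATF4 list (8.06). PyMT week 6 replicate 2 stood apart for Cyc1 (967), Mmp16 (244) and Slc25a1 (1801), which were high, and for dendritic cell markers, which were low (2.73).

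On the first principal component, replicate 3 of week 10 lay alone among the carcinoma samples at -7.37. Single values were Letm1 at 517 in week 10 replicate 2, the endothelial list at 7.06 and Flt1 at 282 in week 12 replicate 1, Oxtr at 465 in week 6 replicate 3 and at 275 in week 12 replicate 2, and Gm10720 at 11.4 in week 8 replicate 1. The cause of these values was not tested.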

How the results depend on the processing

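The count of 0 genes called between the pools held with RLE size factors, library size only, a filter over all 24 samples, a fit of all 24 samples, limma voom with quality weights, libraries without a packet size, and without week 6 or week 12. DESeq2 called 37 (29 higher, 8 lower, 12 beyond 2-fold), the fit of 4 week groups 2 (2 higher, 2 beyond 2-fold), counts divided by the packet size 3 (3 and 3) and no filter 5 (5 and 3). With each mouse left out the calls ran from 0 to 1, all higher, beyond 2-fold 0 to 1. The 1067 genes at an unadjusted p under 0.05 became 2544 with no filter, where 24156 genes were tested, 450 without week 12 and 619 without week 6, and 832 to 1449 with a mouse left out. The difference on the first component was -6.34 on the log2 scale and 3.00 to 7.83 with a mouse left out, and that on the second -7.70 with all tested genes, -24.79 on the log2 scale and -3.22 to 5.59 with a mouse left out. The sign of each component was matched to the main analysis by its gene weights. A component of the same number need not be the same axis. In the test of the change in PyMT against FVB, DESeq2 called 3 and voom 67. Within FVB they called 17 and 84, and the 772 FVB genes at an unadjusted p under 0.05 became 473 without FVB week 6 replicate 3 and 1185 without FVB week 8 replicate 1. At the step from week 6 to week 8 DESeq2 called 71, and the calls ran from 0 to 25 with a mouse left out, an alternative chosen after seeing the data. From week 8 to week 10 DESeq2 called 6. The repeat-like genes were also put through these alternatives after they had been seen.

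With the replicate number as a block, 0 genes were called between the pools, with 1054 at an unadjusted p under 0.05, and 6 at the step from week 6 to week 8. Samples of the same number did not deviate together, with a correlation of -0.04 to 0.10 over 18 pairs and none over 0.1, so this replicate block does not stand for a known pairing.

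Of 2800 values of 112 genes under these alternatives, 2778 kept their direction and 22, in 13 genes, did not. With libraries without a packet size the log2 fold change was 0.03 for Pola2, 0.18 for Wap, 0.14 for Folr1, Asns and Lao1, 0.05 for B2m, 0.36 for Oas2, 1.48 for Rsad2, -0.02 for Spag5 and -0.25 for Pi16. Without week 6 it was 0.18 for Csn1s2a, 0.22 for Wap, 0.03 for Plk1 and 0.14 for Lao1. With voom it was 0.54 for Rsad2 and -0.07 for Spag5. Without week 12 it was 0.07 for Cdk1, 0.08 for Plk1 and -0.02 for Spag5. With a mouse left out it ran from -2.49 to 0.25 for Rsad2, above 0 without replicate 2 of week 8, and from -0.19 to 0.16 for Spag5, below 0 without replicate 2 of week 10 or replicate 3 of week 12. The cause was not tested. A packet size was found in 6 of 12 libraries, which may make genes with few reads less certain. Its part in these values was not tested.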
